A study of Homo sapiens with 8 samples.

Results

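The genes described here are 36 members of the sterol and fatty acid synthesis system, taken by gene name from a table of RNA-seq read counts that lists 58735 genes. They comprise the sterol-sensing regulators, the enzymes from acetyl-CoA to cholesterol, genes of sterol transport, and the enzymes that build, elongate and desaturate fatty acids. The counts come from 8 libraries of cells labelled A549, a human lung adenocarcinoma line. In 4 libraries the cells had been transduced with a lentiviral empty vector (EV group), and in 4 with a lentivirus that overexpresses KRT19, a keratin of simple epithelia (KRT19 group). Both groups had been transduced. Per the study's methods its transduced lines were selected with puromycin to give stable lines. A group may therefore stand for 1 selected line, and the number of lines per group is not stated. No label says that the 4 libraries of a group came from separate cultures, and the p-values then measure only the spread between these libraries, which may be technical.

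Cells sense their sterol supply in the endoplasmic reticulum. When sterols are scarce, the escort protein SCAP carries the membrane-bound transcription factors SREBP-1 and SREBP-2, encoded by SREBF1 and SREBF2, to the Golgi, where proteases release their active parts. When sterols are plentiful, INSIG1 and INSIG2 hold SCAP in the endoplasmic reticulum. SREBP-2 mainly drives cholesterol synthesis genes and SREBP-1 mainly fatty acid synthesis genes, and both bind sterol regulatory elements, often beside a CCAAT box bound by NF-Y. Proliferating tumour cells draw on both pathways for membrane lipid.

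The EV libraries held 1, 3, 2 and 5 KRT19 reads and the KRT19 libraries 5147, 4353, 4923 and 4696, so the targeted gene matched the labels in all 8. Library totals lay between 14073065 and 17054364 counts. The cell label was checked against marker genes. The keratins KRT8 and KRT18 and the NRF2 target NQO1 were well expressed, at 221 ± 10.1, 315 ± 10.8 and 439 ± 11.0 CPM (counts scaled to the library total, mean ± SD, n = 4) in EV. However, 7 of 11 A549 markers averaged under 1 CPM, among them EPCAM, CDH1, AKR1B10 and ALDH1A1, and CEACAM6 had no read. CDKN2A and MTAP, reported as deleted in A549, were read at 104 ± 6.42 and 46.2 ± 3.58 CPM in EV. The extraction text in the labels speaks of retinas, but 9 of 11 retina markers averaged under 1 CPM, and the summed level of that list was 2.58 to 4.41 CPM in every library. The fibroblast list summed to 1.85 to 3.80 CPM, with COL1A1 alone above 1 CPM, and the blood and adipocyte lists to at most 0.362 CPM. The cells are therefore called "labelled A549" here.

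KRT19 3 and EV 3 stood apart from the other libraries. Chi-square per degree of freedom between replicates, which is near 1 for sampling noise, was 7.72 to 13.6 in the pairs that involve KRT19 3, 3.58 to 6.49 in those that involve EV 3, and 2.79 to 3.76 in the remaining pairs. Several results are therefore also given without KRT19 3, without EV 3, or without both.

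The promoter letters are shown first. RefSeq promoter windows (GRCh38.p14) were found for 31 of the 36 members, and the 250 bases before each transcription start were searched on both strands for TCACNCCAC, the core of a sterol regulatory element, and for CCAAT, the NF-Y box. The sterol letters occurred in 1 member, SREBF2, or 3.23% of those with a window, against 1.09% of all 27305 genes. CCAAT occurred in 20 members (64.5%) against 37.0% of all genes. Both occurred together in SREBF2 and in 78 genes overall (0.286%). The stretches that hold these letters are printed for 3 members, in lower case with the matches in capitals. SREBF2 is shown because it holds both letter strings, which do not overlap, and SCD and ACLY because they are members with a low p below. The ATTGG of a reverse-strand match is a CCAAT read on the other strand.
SREBF2 promoter, plus strand, chr22:41832957-41833018: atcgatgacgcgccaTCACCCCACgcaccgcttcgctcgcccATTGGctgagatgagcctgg
SCD promoter, plus strand, chr10:100346989-100347066: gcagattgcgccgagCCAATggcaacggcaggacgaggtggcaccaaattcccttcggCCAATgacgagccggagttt
ACLY promoter, minus strand, chr17:41919026-41919102: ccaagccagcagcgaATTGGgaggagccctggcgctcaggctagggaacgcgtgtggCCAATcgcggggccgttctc

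In SREBF2 the sterol letters began 133 bases before the start and the CCAAT box 106 bases before it, and the stretch also lies in an exon of the antisense gene SREBF2-AS1. The SCD boxes began 229 and 186 bases before the start. TM7SF2, NPC2, INSIG1 and IDI1 also held CCAAT, and INSIG2 held neither string. The median log2 fold change between KRT19 and EV was -0.065 over the 20 members with CCAAT and -0.043 over the 11 without, a description of these windows only. A match is a string of letters, not a bound site. Nor does a missing match show that an element is absent, since only exact strings in these 250 bases were searched.

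Of the 36 members, 35 had enough reads to be tested, and the table lists ABCG1, a sterol efflux pump, at 0 reads in all 8 libraries. A count of 0 allows up to 3 reads, or 0.176 to 0.213 CPM depending on the library, counting error only. Levels of different genes are compared as TPM, which also corrects for gene length. SCD, the desaturase that makes oleate from stearate, led by a wide margin at 3865 ± 165 TPM in EV and 3364 ± 261 TPM in KRT19 (SD, n = 4 each), rank 25 of 14621 tested genes by mean TPM over all libraries. FASN, the fatty acid synthase, followed at 582 ± 45.3 and 557 ± 54.1 TPM. The ranking continued with FDFT1, INSIG1, ACLY and HMGCS1 at 368, 362, 354 and 305 TPM over all libraries. At the low end stood CYP51A1 at 19.0, FADS2 at 9.72 and ABCA1 at 4.62 TPM. INSIG1 was thus far above INSIG2 (40.3 TPM), and SREBF1 (241 TPM) above SREBF2 (136 TPM), in both groups.

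**Figure D1:**
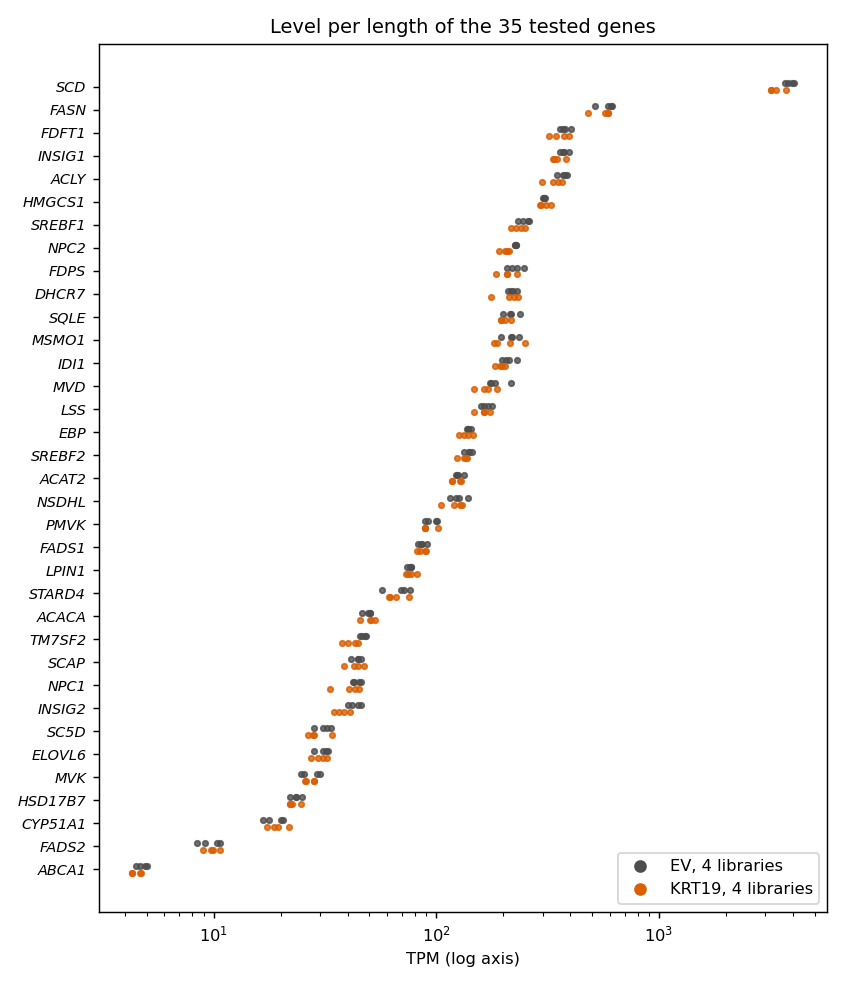
Level per length of the 35 tested genes in TPM (log axis), 4 points per group, EV in grey and KRT19 in orange, ordered by the EV mean. SCD (means of 3865 and 3364 TPM) lies far to the right of all others and ABCA1 (4.62 TPM over all libraries) is lowest, and the groups overlap for most genes.

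KRT19 against EV was tested with edgeR over all 14621 genes. No member passed an adjusted p of 0.05. The lowest adjusted p was 0.660 (SCD), and 1 gene in all, KRT19 itself, passed (0.00684% of tested genes). Taking an unadjusted p under 0.05 instead, 6 of the 35 members (17.1%) had a lower level in KRT19 libraries, where the share over the whole table was 2.56%, and 0 had a higher level, against 2.85%. The 6 were SCD, INSIG2, NPC2, TM7SF2, IDI1 and ACLY. DESeq2 called the same 6 at an unadjusted p, where it called 1.78% of all genes lower, and 0 at an adjusted p. In 3 members, all lower, the EV and KRT19 libraries did not overlap, against 1.81% of all genes with such a gap in that direction.

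The fitted log2 fold change was negative in 30 of 35 members, against 47.8% of all genes, and its median was -0.060, against 0.0051 over all genes. Across fits that left out a library each, the median ran from -0.029 with 26 negative (without KRT19 3) to -0.094 with 30 negative (without KRT19 1), and without EV 3 and KRT19 3 it was -0.0092 with 20 negative. These differences are small: the 95% intervals had a median half-width of 0.13, and no interval reached below -0.33 (MVD, -20.4%) or above 0.24 (CYP51A1, 17.9%). Since the libraries are bulk samples, fewer cells with a given level and less RNA per cell cannot be told apart.

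**Figure D2:**
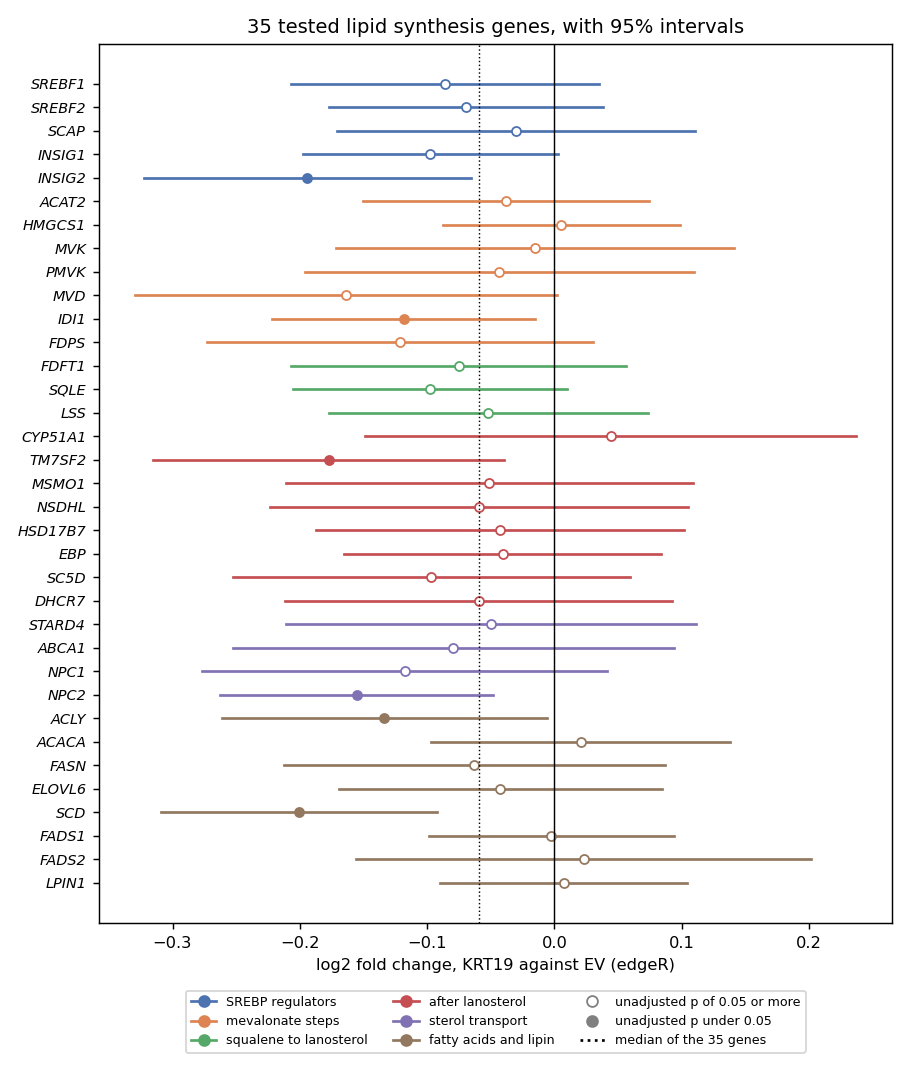
The log2 fold change of KRT19 against EV from edgeR for each tested member, with its 95% interval, coloured by role. Filled points are the 6 members with an unadjusted p under 0.05, all left of 0, and the dotted line marks the median at -0.060. Most intervals cross 0.

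Among the regulators, all 5 had a negative fold change and 1, INSIG2, had an unadjusted p under 0.05. SREBF1 (chr17:17810399-17837002, minus strand, hg38) stood at 535, 518, 590 and 578 CPM in EV 1 to 4 and at 568, 529, 478 and 519 CPM in KRT19 1 to 4. The groups overlapped, with KRT19 3 the lowest library, and the log2 fold change was -0.09 ± 0.057 (SE, edgeR adjusted p = 0.906), or -0.014 without EV 3 and KRT19 3. Part of SREBF1 lies opposite RAI1, and counting may not separate the strands. SREBF2 (chr22:41833079-41907308, plus strand) stood at 288, 279, 299 and 304 CPM in EV and at 293, 281, 257 and 284 CPM in KRT19, again overlapping and lowest in KRT19 3 (log2 fold change -0.07 ± 0.051, adjusted p = 0.912, and -0.022 without EV 3 and KRT19 3). SCAP, the escort, stood at 77.7, 74.1, 80.9 and 82.4 CPM in EV and at 85.3, 78.4, 67.7 and 77.3 CPM in KRT19 (log2 fold change -0.03 ± 0.067, adjusted p = 0.966). Its highest and lowest libraries were both KRT19 libraries, and its fold change turned positive, 0.029, without KRT19 3. INSIG1, the more abundant of the retention proteins' genes, stood at 393, 365, 381 and 381 CPM in EV and at 344, 380, 350 and 347 CPM in KRT19 (log2 fold change -0.10 ± 0.048, edgeR adjusted p = 0.906). Only KRT19 2 reached the EV range.

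INSIG2 (chr2:118088452-118110997, plus strand) was lower in every KRT19 library than in any EV library. It stood at 49.1, 48.8, 45 and 46.2 CPM in EV and at 38.6, 41.7, 44.2 and 40.7 CPM in KRT19, a mean of 47.3 ± 2.01 against 41.3 ± 2.32 CPM (SD). The nearest libraries, EV 3 and KRT19 3, were the ones that stood apart, and they lay closest together. On the log2 scale the fitted difference was -0.19 ± 0.061 (SE), or -12.6%, with an edgeR unadjusted p of 0.00542 and adjusted p of 0.868, and an exact two-sided permutation test gave p = 0.0286, the smallest that 70 labellings of 4 against 4 allow. Without KRT19 3 it was -0.23 (edgeR adjusted p = 0.443), and without KRT19 3 and EV 3 it was -0.25 (edgeR adjusted p = 0.171).

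**Figure D3:**
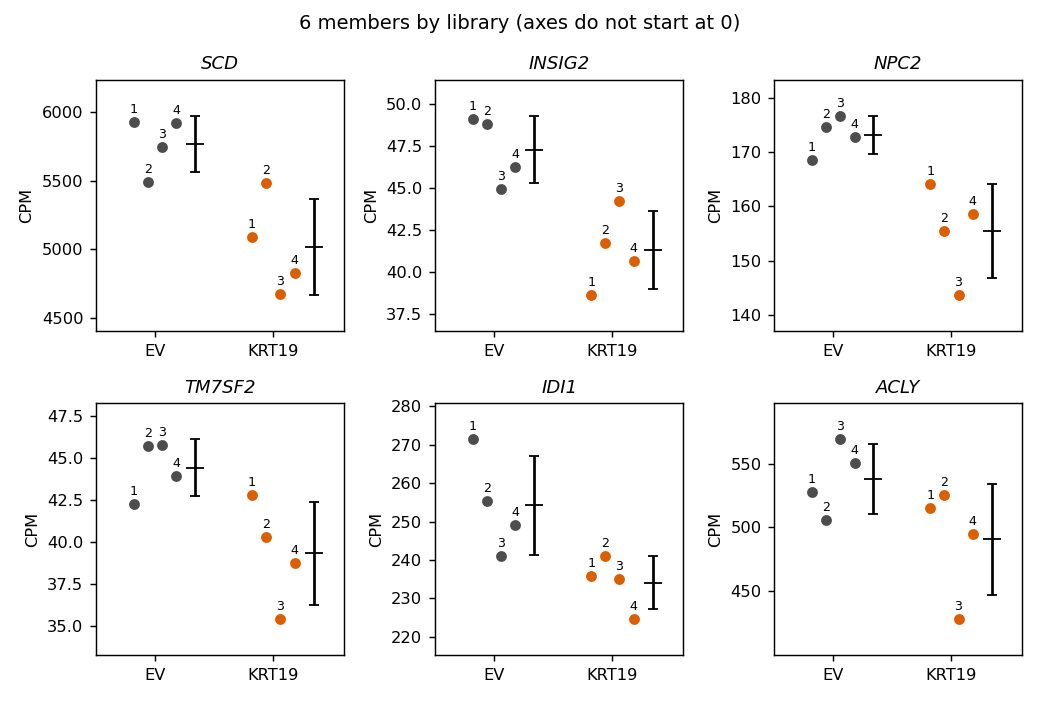
CPM in each library (points, numbered by replicate) with the mean and SD of 4 libraries for the 6 members with an unadjusted p under 0.05. SCD, INSIG2 and NPC2 do not overlap between groups, though the SCD values of EV 2 (5488) and KRT19 2 (5479) nearly meet. TM7SF2, IDI1 and ACLY do overlap, or touch.

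The mevalonate enzymes turn acetyl-CoA into isoprenoid units, and 6 of 7 had a negative fold change, with a group median of -0.043. Without EV 3 and KRT19 3 only 3 of 7 were negative and the median turned positive, 0.011. IDI1 (chr10:1039152-1049170, minus strand), the isomerase of isopentenyl diphosphate, was the only one with an unadjusted p under 0.05. It stood at 271, 255, 241 and 249 CPM in EV and at 236, 241, 235 and 225 CPM in KRT19. KRT19 2 and EV 3 came within 1 CPM of each other at the border of the groups, and the log2 fold change was -0.12 ± 0.049 (edgeR unadjusted p = 0.0274, adjusted p = 0.906; exact permutation p = 0.0571). Its unadjusted call was lost without EV 1 (-0.086) and without KRT19 4 (-0.099). MVD, mevalonate diphosphate decarboxylase, stood at 187 ± 19.2 TPM in EV and 167 ± 15.9 TPM in KRT19, with a log2 fold change of -0.16 ± 0.078, which was -0.10 without KRT19 3, -0.081 without EV 3 and -0.020 without both. FDPS, which makes farnesyl diphosphate, stood at 226 ± 17.4 and 207 ± 18.4 TPM, with a log2 fold change of -0.12 ± 0.072, which was -0.065 without either library and -0.0092 without both. Neither had an unadjusted p under 0.05 with all libraries, but MVD did without EV 1 (-0.20), EV 2 or KRT19 1 (-0.23), and FDPS without EV 1 (-0.17) or KRT19 1 (-0.18). The log2 fold changes of ACAT2 (acetyl-CoA acetyltransferase), MVK and PMVK (the kinases of mevalonate) were -0.038, -0.015 and -0.043, each with groups that overlapped. HMGCS1, the synthase that makes HMG-CoA, stood at 304 ± 3.26 TPM in EV and 305 ± 16.0 TPM in KRT19, a log2 fold change of 0.0055 ± 0.044. ACAT2 lies opposite TCP1 and MVK opposite MMAB, so their reads may be mixed if strand was not used.

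From squalene to lanosterol, FDFT1 (squalene synthase), SQLE (squalene epoxidase) and LSS (lanosterol synthase) all had negative fold changes, -0.08 ± 0.062, -0.10 ± 0.051 and -0.05 ± 0.059, and none had an unadjusted p under 0.05. Their levels were 377 ± 18.4, 216 ± 15.5 and 168 ± 8.31 TPM in EV, and 358 ± 31.0, 202 ± 10.3 and 162 ± 10.9 TPM in KRT19. For FDFT1 and SQLE the difference lay between the SDs of the groups, and for LSS it was below both SDs. Without EV 3 and KRT19 3 only SQLE stayed negative (-0.12), and FDFT1 and LSS were at 0.020 and 0.033.

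After lanosterol, 7 of 8 enzymes had a negative fold change, with a median of -0.055, and without EV 3 and KRT19 3 only 4 of 8, with a median of 0.0064. TM7SF2 (chr11:65111845-65116384, plus strand), a sterol C14 reductase, was the only one with an unadjusted p under 0.05. Its levels were 42.3, 45.7, 45.8 and 43.9 CPM in EV and at 42.8, 40.3, 35.4 and 38.8 CPM in KRT19. Only KRT19 1 exceeded the lowest EV library, and the fitted log2 fold change was -0.18 ± 0.065 (edgeR unadjusted p = 0.0148, adjusted p = 0.906; exact permutation p = 0.0571). Without EV 3 and KRT19 3 it was -0.11 and no longer had an unadjusted p under 0.05. MSMO1, NSDHL, HSD17B7, EBP and DHCR7, which carry out demethylation, isomerisation and reduction steps, had log2 fold changes of -0.051, -0.059, -0.043, -0.041 and -0.060 with overlapping groups. HSD17B7 was at -0.0081 without EV 3 and KRT19 3. SC5D, the C5 desaturase, had -0.10 ± 0.074, and CYP51A1, the lanosterol demethylase, 0.044 ± 0.091. MSMO1, SC5D and CYP51A1 were highest in KRT19 3, the library in which most members were lowest. Without KRT19 3 MSMO1 was at -0.14 and SC5D at -0.17, and CYP51A1 turned negative, -0.018. For CYP51A1, 77.5% of its 75-base words also occur in an overlapping readthrough gene that was given 0 reads, so its low count is uncertain. For HSD17B7 7.78% of the words also occur in its pseudogene HSD17B7P2.

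Among the transport genes, NPC2 (chr14:74476192-74494177, minus strand), which hands cholesterol from the lysosome lumen to its partner NPC1, was lower in every KRT19 library than in any EV library. It stood at 169, 175, 177 and 173 CPM in EV and at 164, 155, 144 and 159 CPM in KRT19, a mean of 173 ± 3.47 against 155 ± 8.67 CPM (SD). The log2 fold change was -0.16 ± 0.051, a change of -10.2%, with an edgeR unadjusted p of 0.00711, an adjusted p of 0.871 and an exact permutation p of 0.0286. Without KRT19 3, its lowest library, it was -0.12 (edgeR adjusted p = 0.904). NPC2 lies opposite ISCA2, which had 3838 reads over the 8 libraries to its own 21023. NPC1 stood at 43.8 ± 1.74 TPM in EV and 40.4 ± 5.15 TPM in KRT19, and its wide KRT19 spread came from KRT19 3 (92.3 CPM against 115 to 124 in the other KRT19 libraries). Its log2 fold change was -0.12 ± 0.075, and -0.029 without KRT19 3. STARD4, a cytosolic sterol carrier, and ABCA1, a cholesterol efflux pump, had log2 fold changes of -0.05 ± 0.076 and -0.08 ± 0.082, and without EV 3 and KRT19 3 -0.19 and -0.12. Leaving out a library moved STARD4 between -0.0067 (without EV 1) and -0.12 (without EV 3). All 4 tested transport genes were negative with all libraries and without both EV 3 and KRT19 3.

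Of the fatty acid genes, 5 of 8 had a negative fold change, and their median was -0.023, the nearest to 0 of the 6 roles. Without EV 3 and KRT19 3, 4 of 8 were negative and the median was 0.0071. SCD (chr10:100347124-100364834, plus strand) had the smallest p of all members, rank 24 of the 14621 tested genes. It stood at 5922, 5488, 5740 and 5916 CPM in EV and at 5088, 5479, 4678 and 4827 CPM in KRT19, a mean of 5767 ± 204 against 5018 ± 351 CPM (SD). The gap between the groups was narrow, since KRT19 2 reached almost to EV 2. The log2 fold change was -0.20 ± 0.051, a change of -13.0%, with an edgeR unadjusted p of 0.00115, an adjusted p of 0.660 and an exact permutation p of 0.0286. Without KRT19 3 it was -0.17 (edgeR adjusted p = 0.482), and without KRT19 3 and EV 3 also -0.17 (edgeR adjusted p = 0.330). With genes of very low count kept in, edgeR gave it an adjusted p of 0.011, the one setting in which a member passed.

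ACLY (chr17:41866908-41930542, minus strand), which makes cytosolic acetyl-CoA from citrate, stood at 527, 506, 569 and 551 CPM in EV and at 515, 525, 428 and 495 CPM in KRT19. KRT19 3 was far the lowest, and the groups overlapped, with a log2 fold change of -0.13 ± 0.060 (edgeR unadjusted p = 0.0412, adjusted p = 0.906; exact permutation p = 0.114). Without KRT19 3 it was -0.073 and without EV 3 as well -0.046, and the unadjusted call was lost in 5 of the 8 fits that left out a library each (EV 1, EV 3, EV 4, KRT19 3 or KRT19 4). The enzymes that build and elongate the chain had smaller fitted differences than SCD, though that contrast was not tested. ACACA, acetyl-CoA carboxylase, had a log2 fold change of 0.021 ± 0.056, FASN -0.06 ± 0.071 and ELOVL6, the elongase of palmitate, -0.04 ± 0.060. FADS1 and FADS2, desaturases of polyunsaturated fatty acids, had -0.0025 ± 0.046 and 0.023 ± 0.085, and LPIN1, a phosphatidate phosphatase, 0.0074 ± 0.046. Without EV 3 and KRT19 3 ELOVL6 was at -0.11, ACACA at 0.079 and FADS2 at 0.11, none with an unadjusted p under 0.05. Leaving out a library moved ELOVL6 between -0.0055 (without KRT19 1) and -0.075 (without EV 3). FADS1 and FADS2 overlap on opposite strands.

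Summed over the members, the EV libraries reached 13603 ± 451 CPM and the KRT19 libraries 12478 ± 717 CPM, of which SCD alone made up 42.4% ± 0.83 in EV and 40.2% ± 1.09 in KRT19. Leaving out SCD, the sums were 7836 ± 303 and 7460 ± 416 CPM. KRT19 3 had the lowest sum, 11556 CPM, and the other KRT19 libraries lay between 12282 and 13161 CPM, against 12946 to 13906 CPM in EV.

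The number of members with a negative fold change was 26 without KRT19 3, 27 without EV 3, and 33 without EV 2 or KRT19 2. KRT19 3 was the lowest of the 8 libraries for 20 of 35 members (57.1%), against 21.6% of all genes. EV 3 was the highest for 12 members (34.3%), against 15.3% of all genes. Without KRT19 3 and EV 3, the 20 of 35 negative members were 57.1%, against 49.3% of all genes, and the median over all genes was 0.0015. In that setting, chosen after seeing the data, 8 members had an unadjusted p under 0.05, all lower, where 4.18% of all tested genes were called lower. They were INSIG2, NPC2, SCD and IDI1 and, in place of TM7SF2 and ACLY, MSMO1 (-0.18), SC5D (-0.21), SQLE (-0.12) and STARD4 (-0.19).

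**Figure D4:**
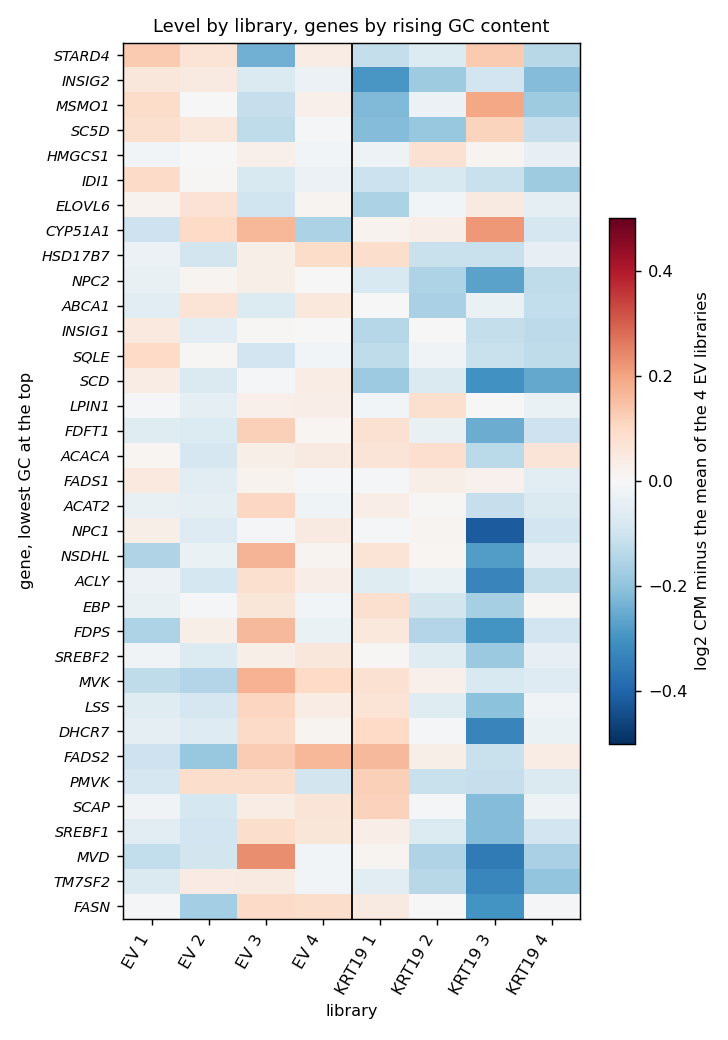
The log2 CPM of each tested member in each library minus its mean over the 4 EV libraries (blue lower, red higher), genes ordered by GC content with the lowest at the top. The KRT19 3 column turns from mostly red to mostly blue down the plot. INSIG2, SCD, NPC2, IDI1, TM7SF2 and SQLE are among the members that are blue in all 4 KRT19 libraries.

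The deviations of these libraries moved with the GC content of the transcripts, and the part of GC content in the lower values was not tested beyond the correction given last. Over the 35 members, the difference of KRT19 3 from the other KRT19 libraries had a Pearson r of -0.749 and a Spearman rho of -0.769 with GC content, and the difference of EV 3 from the other EV libraries had 0.686 and 0.696. Over 14614 genes the values were -0.365 and -0.469 for KRT19 3, and 0.321 and 0.455 for EV 3. These are correlations across genes, which share libraries and are not independent, and are given as descriptions. In the 17 members of higher GC content KRT19 3 had a median difference of -0.20 on the log2 scale, and in the 18 of lower GC content 0.0093. The fold change between the groups had r = -0.020 and rho = -0.014 with GC content over the members, and -0.124 and -0.224 over all 14614 genes. GC and length trends were then removed in each library, a setting chosen after seeing the data. In that fit 30 of 35 members were negative, with a median of -0.067. They were not all the same members as before, since HMGCS1 turned negative and FADS1 positive. At an unadjusted p under 0.05, calls over all genes rose to 3.83% lower, and 12 members were lower. None had an adjusted p under 0.05 (INSIG2 was lowest, 0.0728).

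**Figure D5:**
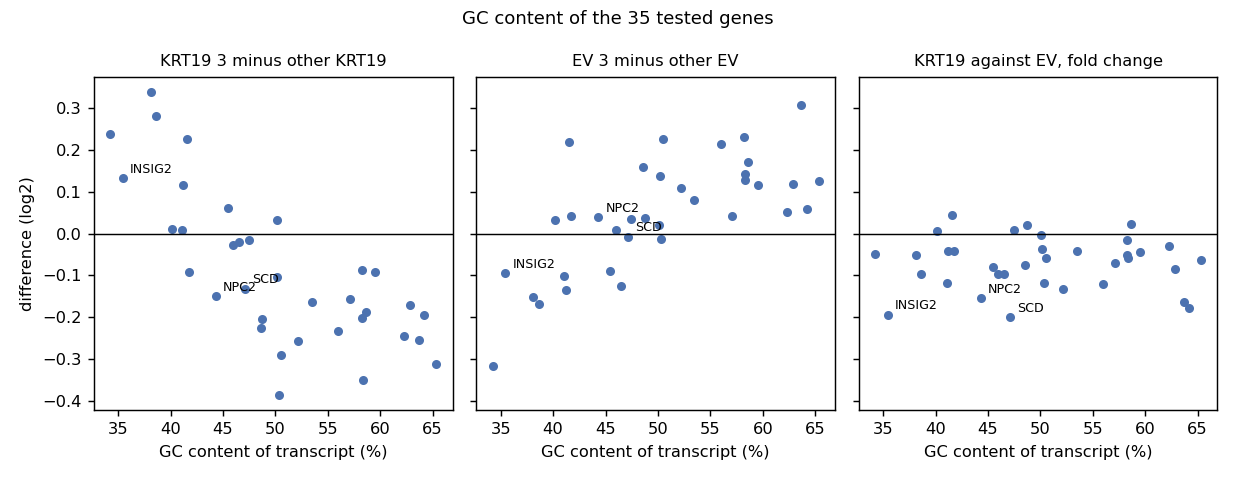
GC content of each tested member's transcript (%) against 3 log2 differences, KRT19 3 minus the other KRT19 libraries, EV 3 minus the other EV libraries, and the fold change of KRT19 against EV. The first falls with GC content (r = -0.749), the second rises (0.686) and the third is near flat (-0.020).

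Further genes of the same pathways, 60 outside the members, were read from a list drawn up for their roles. Of these, 56 were tested, 33 had a negative fold change and 23 a positive one, with a median of -0.016. At an unadjusted p under 0.05, 4 (7.14%) were lower and 0 higher, where the whole table gave 2.56% and 2.85%, and none had an adjusted p under 0.05. ACSS2, which makes acetyl-CoA from acetate, stood at 171, 172, 187 and 183 CPM in EV and at 159, 158, 120 and 149 CPM in KRT19. The groups did not overlap, and KRT19 3 was the lowest. The log2 fold change was -0.29 ± 0.074, a change of -18% (edgeR unadjusted p = 0.00117, adjusted p = 0.660; exact permutation p = 0.0286), and with genes of very low count kept in, its edgeR adjusted p was 0.000513. Without KRT19 3 it was -0.20, and without EV 3 and KRT19 3 -0.18. The other 3 were LIPA, the lysosomal acid lipase that frees cholesterol from its esters, at -0.19 ± 0.058, the lipoprotein receptor gene VLDLR at -0.15 ± 0.066, and HSD17B12, an enzyme of fatty acid elongation, at -0.14 ± 0.063. VLDLR and HSD17B12 each lost the unadjusted call in 6 of the 8 fits that left out a library each, VLDLR keeping it without EV 3 or KRT19 2 and HSD17B12 without EV 3 or KRT19 3. Without both EV 3 and KRT19 3 HSD17B12 was at -0.23. None of the 11 genes that process or degrade the SREBP system, such as MBTPS1 and MBTPS2 (the Golgi proteases), had an unadjusted p under 0.05, and 5 of them were negative. Of 17 tested further sterol genes 2 had an unadjusted p under 0.05, and of 28 further fatty acid genes 2, all 4 of them lower, where the whole table gave 2.56%.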

How the data were processed

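Counts per gene, as deposited by the authors, were read for 8 libraries (4 EV, 4 KRT19). The labels name hg38, Bowtie 0.12.2, featureCounts 1.5.0-p3 and DESeq2, with no strand setting. Of 58735 listed genes, 58724 had the coordinates of GENCODE 29. The column of gene lengths was the length of merged exons for all 36 members, and TPM was computed from it. With edgeR 4.0.16 (R 4.3.3), the 14621 genes that passed filterByExpr, with 99.8% or more of each library total, were normalized by TMM and tested by the quasi-likelihood test with Benjamini-Hochberg adjustment over all of them. Single genes were also compared by an exact two-sided permutation test of log2 CPM. Alternatives were DESeq2 1.42.0, limma 3.58.1 voom with quality weights, other size factors and filters, the replicate number as a block, and leaving out libraries, plus those named as chosen after seeing the data. The edgeR steps were tested on simulated data.

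The members, lists and rules were chosen with earlier results of these data known. Named genes were all 36 members, with values in every library for the regulators and for members with an unadjusted p under 0.05 or groups that do not overlap, and of the further pathway genes those with an unadjusted p under 0.05. Promoter stretches in exons of protein-coding genes were not printed. Replicate numbers came from the labels. The residual correlations of same-numbered libraries were -0.111, -0.024, -0.159 and 0.057, which gave no sign of pairing by number. Such correlations cannot show that the libraries were handled separately.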

Additional observations from a re-analysis of the deposited data

Results flagged for a closer look

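In 76 groups of 4 libraries, 1 library lay further from the nearest of the others than Dixon's 95% critical share of the range in 5 groups, where chance gives about 3.8. KRT19 2 was the highest KRT19 library for INSIG1 (share 0.835, at 8.57 log2 CPM against 8.43 to 8.45) and for SQLE (0.842, at 8.0 against 7.89 to 7.91). KRT19 3 was the lowest KRT19 library for ACACA (0.908, at 7.34 against 7.53 to 7.55), for FASN (0.852, at 10.26 against 10.56 to 10.61) and for KRT19 itself (0.949, at 8.17 against 8.27 to 8.28). Without KRT19 3 the log2 fold change of FASN was 0.0094.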

How the results depend on the processing

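Over 17 alternatives, the log2 fold changes of 18 members never changed sign, and SCD, INSIG2 and NPC2 kept an unadjusted p under 0.05 in all 17, TM7SF2 in 16, IDI1 in 14 and ACLY in 10. Of the members, 6 were lower at such a p as reported (2.56% of all genes), 11 by limma-voom (4.66%), 12 after removal of GC and length trends (3.83%), and 4 to 10 across fits that dropped 1 library (4 for KRT19 4, with 2.11% of all genes, and 10 for KRT19 1, with 3.41%). Dropping 1 library added FDPS and MVD (EV 1), INSIG1 and MVD (EV 2), SQLE (EV 3), FDFT1, FDPS, MVD and SREBF1 (KRT19 1), INSIG1 and SQLE (KRT19 2), and MSMO1 and SC5D (KRT19 3) to the members so called. Under the looser filter 1 member (SCD) passed the adjusted threshold. The median fold change was -0.0092 without EV 3 and KRT19 3 together. Of all genes, 1 passed the adjusted threshold as reported, 71 under the looser filter, 8 by limma-voom, 5 by DESeq2, 5 after removal of GC and length trends, 8 without EV 3 and KRT19 3, and 1 to 5 across fits that dropped 1 library (5 for KRT19 3). At an unadjusted p these were 791 as reported, 1559 under the looser filter, 1337 by limma-voom, 1224 after removal of GC and length trends, 1193 without EV 3 and KRT19 3, and 620 to 1228 across fits that dropped 1 library. The cause of these shifts was not tested. In the fit with the replicate number as a block, 451 genes and 4 members (INSIG2, NPC2, SCD and TM7SF2) had an unadjusted p under 0.05. The settings on EV 3 with KRT19 3 and on GC content were chosen after seeing the data.

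Of 595 member values, 39 turned sign, over 17 members. Without EV 3 and KRT19 3 they were SCAP 0.042, ACAT2 0.024, MVK 0.067, PMVK 0.012, FDFT1 0.020, LSS 0.033, NSDHL 0.069, EBP 0.021, DHCR7 0.055 and FASN 0.041. Across fits that dropped 1 library the ranges were -0.083 to 0.029 for SCAP, -0.018 to 0.021 for HMGCS1, -0.065 to 0.045 for MVK, -0.018 to 0.10 for CYP51A1, -0.14 to 0.0025 for MSMO1, -0.11 to 0.0096 for NSDHL, -0.12 to 0.022 for DHCR7, -0.0079 to 0.070 for ACACA, -0.12 to 0.0094 for FASN, -0.022 to 0.014 for FADS1, -0.039 to 0.080 for FADS2 and -0.017 to 0.020 for LPIN1. HMGCS1 and LPIN1 were -0.0064 and -0.0045 by upper-quartile scaling, and -0.0010 and -0.0016 by limma-voom. After removal of GC and length trends HMGCS1 was -0.031 and FADS1 0.015. The median 95% interval of the members reached 0.13 to either side of the log2 fold change.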
